A study of Schizosaccharomyces pombe with 2 samples.

Results

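Polyamine-family major facilitator transporters of fission yeast (Schizosaccharomyces pombe) are described here in cells labelled as mutant in a pair of transcriptional corepressors. Members were chosen by systematic gene name, with 9 names listed, and 8 of them were found among the 4955 gene features of the array. The feature names are SPCC794.04c, SPBC36.01c, SPBC36.02c, SPBC36.03c (gene symbol mfs3), SPBC530.02, SPBC409.08, SPCC569.05c and SPBC947.06c. The listed gene SPBC530.15c was not analysed here. The listing was made with log ratios of these same arrays already known, so the ratios of the members are given as a description and not as a test. The family name comes with the listing; the gene table used here carries no product text, and no transport was measured.

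The strains compared were a tup11,12D double mutant, read as carrying deletions of both tup11 and tup12, and a wild type (wt). Cultures were in logarithmic growth in rich medium, and YES medium at 30 degrees is stated for the mutant on array 1 alone. Total RNA of the 2 strains was hybridised together on each of 2 spotted DNA arrays with the dyes exchanged, from 2 independent RNA preparations, so n = 2 arrays throughout. Each strain is a single genotype, and the labels do not say how many isolates of it were used. In RNA from a whole culture, more transcript per cell and more cells that make the transcript cannot be told apart.

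Tup11 and Tup12 are WD-repeat proteins related to Tup1 of budding yeast. Such corepressors do not bind DNA themselves. They are brought to promoters by DNA-binding proteins and lower transcription there. Polyamines such as putrescine, spermidine and spermine are small, positively charged molecules that bind nucleic acids and are needed for growth. Transporters of the major facilitator superfamily are single polypeptides that cross the membrane many times, and some of them use a proton gradient to move a substrate. In budding yeast, members of this superfamily carry polyamines and also a range of drugs out of the cell or into the vacuole, so a family name of this kind does not fix a substrate.

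Neither dye nor strain is named in the column headers. Local background averaged 1.80 on array 1 and 753 on array 2 in the first channel, and 408 and 12.5 in the second, so the dyes had changed places and the first channel held the same strain on both. The authors' deposited ratios ran as first over second channel (correlations of 0.963 and 0.886 with the normalised ratios), and the sample titles put the mutant over the wild type. The first channel was therefore read as the mutant. That reading is likely and not stated, and with the channels read the other way every sign given here would turn. Sample labels give the mutant as the source of channel 2 on array 2, and as a source without a channel number on array 1. How label channels relate to the first and second channel of the scanner columns is not stated. Median gene signals were 1339.5 and 2547.25 in the mutant channel and 4236.25 and 1349.75 in the wild-type channel of arrays 1 and 2, so spot signals of the strains compare only after normalisation. As a check of the labels, a feature named tup1, which matched no gene in the gene table, gave log2 ratios of -2.37 and -1.86 (limma adjusted p = 0.000268). The feature of tup11 gave 0.95 and -0.11 (limma adjusted p = 0.48), with signal well above background in both strains, and deletion was not verified. The gene tup12 was not analysed here. Across the array, 168 of 4812 tested features, 3.49%, were called at a limma adjusted p under 0.05, of which 117 were higher in the mutant (2.43%) and 51 lower (1.06%).

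Of the 8 transporter genes, 7 had a mean log2 ratio above 0, and 6 were higher in the mutant on both arrays. SPBC947.06c was lower on both arrays, beside 29.6% of all features, and SPBC530.02 changed sign between them. The median over the 8 was 0.58, at 0.78 on array 1 and 0.35 on array 2, beside a median of 0.01 over all tested features. A ratio above 0 on both arrays was found in 30.1% of all features. SPCC794.04c, SPBC36.03c and SPBC36.02c were called higher and 0 were called lower by limma, beside 2.43% and 1.06% of all features in those directions. As these ratios were known when the genes were listed, nothing is read from the difference between those shares.

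**Figure D1:**
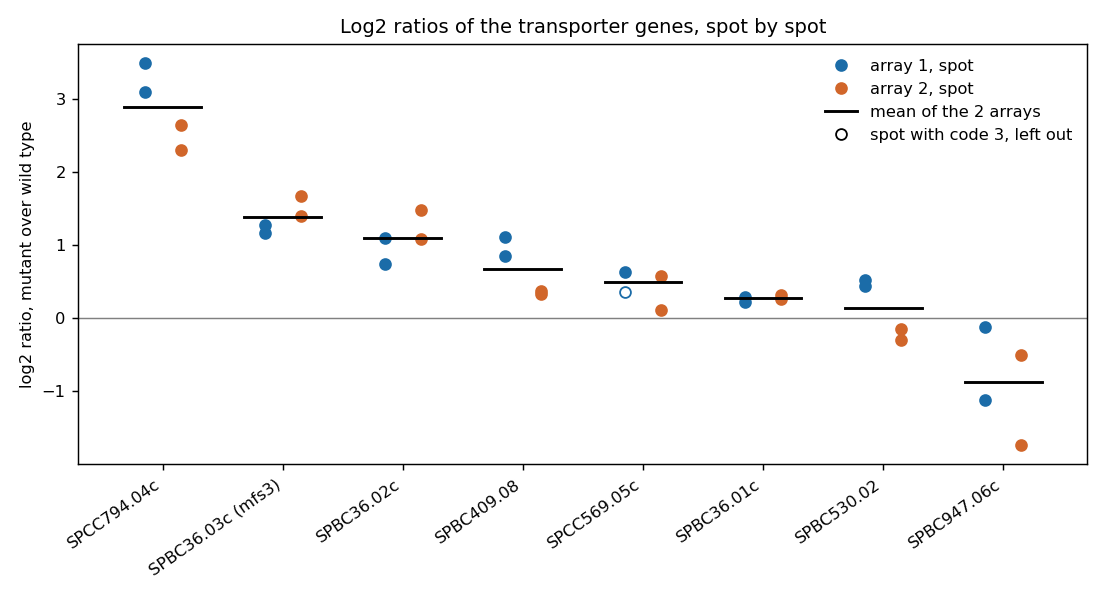
Log2 ratio of mutant over wild type (vertical axis) for each spot of the 8 transporter genes, ordered by mean; blue points are spots of array 1, orange points spots of array 2, an open point is the spot left out for its quality code, and the black bar is the mean of the 2 arrays. SPCC794.04c stands apart at 2.88, SPBC530.02 lies on both sides of 0, and the spots of SPBC947.06c are the most spread.

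SPCC794.04c, a gene on chromosome III, had the highest ratio in the set. After subtraction of local background, its mutant spots read 5062.5 and 5581 on array 1 and 5336.5 and 4184.5 on array 2. Its wild-type spots read 1407.5 and 1146 on array 1 and 639 and 273 on array 2. All 4 mutant spots were above the limit set by spots of bacterial control DNA, which was 442 and 1076.5 in the mutant channels. Only 1 of its 4 wild-type spots was above the corresponding limits of 1659 and 488. The spot ratios were 3.09 and 3.49 on array 1 and 2.30 and 2.64 on array 2, so the arrays did not overlap although all spots were far above 0. The mean log2 ratio was 2.88 ± 0.58 (SD, n = 2), a fitted fold of 7.36 with a 95% interval from 5.12 to 10.6, and the fold was 9.77 on array 1 and 5.55 on array 2. The mean wild-type signal stayed below the control limit on each array, so the wild-type level has only an upper bound, which the interval does not take into account. Its call was lost with the authors' deposited values, in which 0 features of the array were called by limma (592 at an unadjusted p under 0.05), and returned there with a robust prior (limma adjusted p = 0.00326), a setting chosen after seeing the data.

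**Figure D2:**
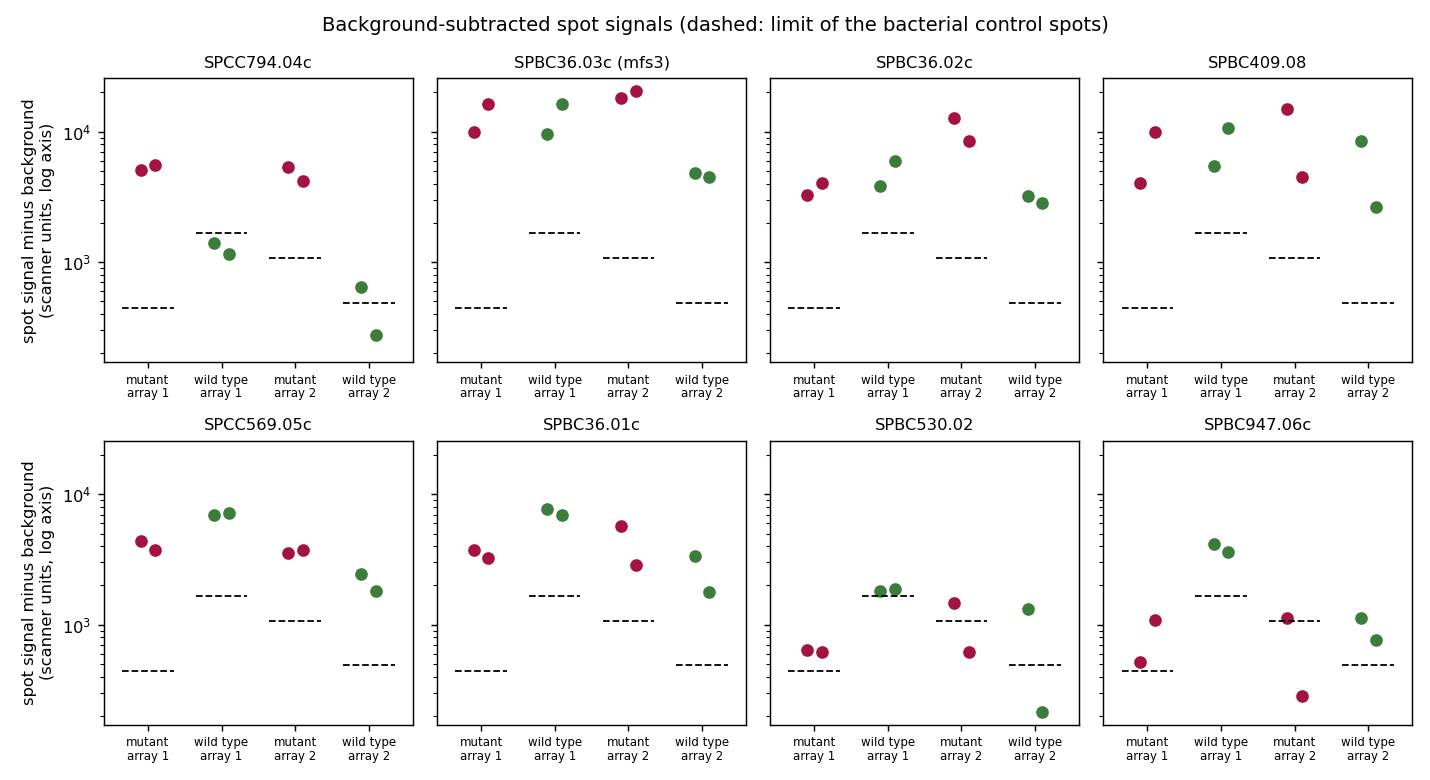
Spot signal minus local background, in scanner units on a log axis, for the 8 transporter genes; red points are spots of the mutant channel and green points spots of the wild-type channel on each array, before normalisation, and dashed lines are the limits from bacterial control spots. In SPCC794.04c the mutant spots are all above their limits and 1 of 4 wild-type spots is.

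SPBC36.03c (mfs3) and SPBC36.02c, which are adjacent on chromosome II, were the next in order, and in both the signals of either strain passed the control limit throughout. In mfs3 the background-subtracted signals of array 1 were 9918.5 and 16258.5 in the mutant and 9513 and 16332.5 in the wild type. On array 2 they were 17985 and 20384.5 in the mutant and 4848 and 4516 in the wild type. The unequal brightness of the channels is taken out by normalisation, after which the spot ratios of mfs3 were 1.27 and 1.17 on array 1 and 1.40 and 1.68 on array 2. Its mean log2 ratio was 1.38 ± 0.22 (SD, n = 2), a fold of 2.60 with a 95% interval from 1.90 to 3.57.

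In SPBC36.02c the mutant signals were 3241 and 4067 on array 1 and 12747.5 and 8476 on array 2, against wild-type signals of 3836.5 and 5970.5 on array 1 and 3208 and 2842 on array 2. The spot ratios were 1.09 and 0.75 on array 1 and 1.48 and 1.08 on array 2, and the lowest spot of array 2 lay between the spots of array 1. The mean was 1.10 ± 0.26 (SD, n = 2), or 2.15-fold, with a 95% interval from 1.56 to 2.95. Both genes were higher in the mutant in every spot and had a larger ratio on array 2, whereas SPCC794.04c had the larger ratio on array 1. At least 2-fold on both arrays was reached by 2 of the 8 genes, SPCC794.04c and mfs3, beside 1.52% of all features. The calls of mfs3 and SPBC36.02c were lost with plain background subtraction, with median centring and with the authors' deposited values. With a robust prior on the authors' values, mfs3 and SPBC36.02c were still not called (limma adjusted p = 0.0509 and 0.0867). Their folds moved little between settings, from 2.54 to 2.87 in mfs3 and from 2.11 to 2.23 in SPBC36.02c.

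The gene table places SPBC530.15c, SPBC36.01c, SPBC36.02c and mfs3 next to each other as 4 consecutive protein-coding genes of chromosome II. The ratios were unequal along that run. SPBC36.01c stood at 0.26 on array 1 and 0.29 on array 2, with a mean of 0.27 ± 0.03 (SD, n = 2) and a 95% interval on the log2 scale from -0.17 to 0.71. Its 4 spots ranged from 0.23 to 0.32, and it was not called. SPBC36.02c exceeded SPBC36.01c by 0.67 on array 1 and 0.99 on array 2, and mfs3 exceeded it by 0.97 and 1.25. The difference between mfs3 and SPBC36.02c was 0.30 and 0.26. The order of the 3 measured genes was thus the same on both arrays. Features of related genes can share label where their sequences are alike, and the sequences on the array were not used here, so a contribution of cross-hybridisation was not tested.

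The genes on either side of the run stood closer to 0 than SPBC36.02c and mfs3. On the side of mfs3, the gene cys11 (feature SPBC36.04), named for cysteine synthesis, stood at -0.31 ± 0.04 and the histone deacetylase gene clr6 at -0.32 ± 0.11. On the other side, dsk1, which encodes a protein kinase, stood at 0.12 ± 0.03. None of these was called.

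**Figure D3:**
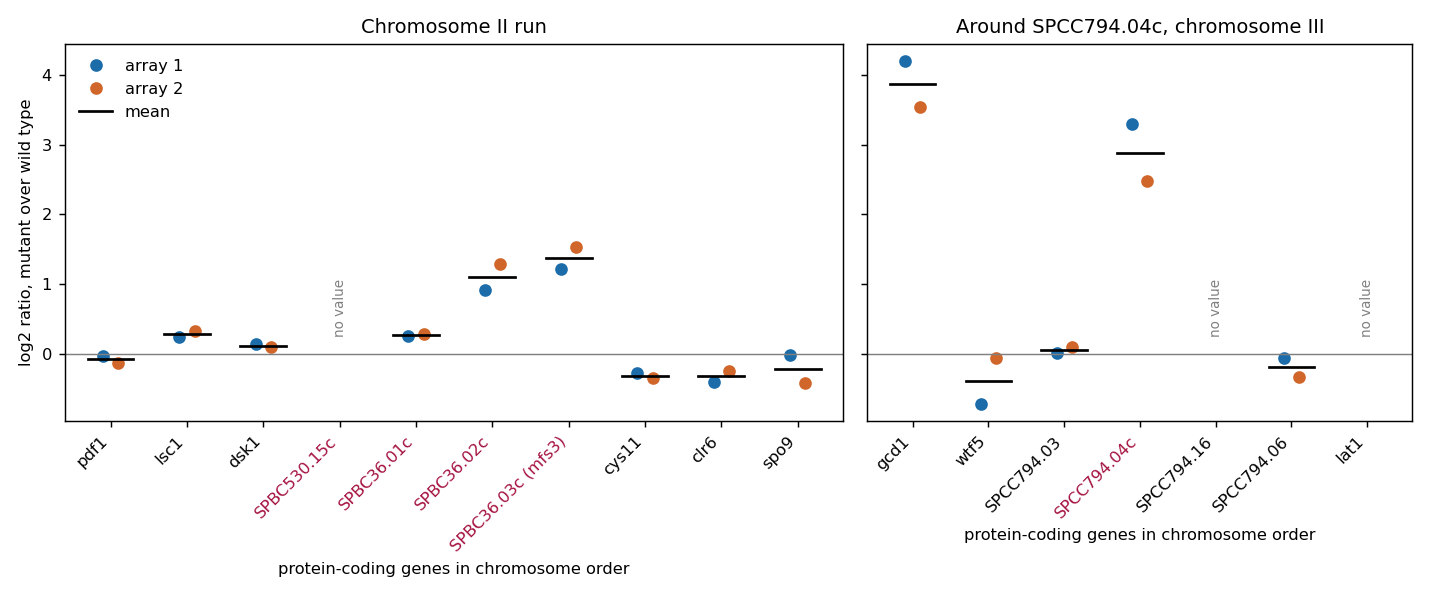
Log2 ratio of mutant over wild type (vertical axis) for protein-coding genes in chromosome order, left for the run of 4 transporter genes on chromosome II and right around SPCC794.04c on chromosome III; blue and orange points are arrays 1 and 2, bars their means, and transporter genes are named in red. SPBC36.02c and mfs3 stand above their neighbours, and SPCC794.04c and gcd1 are high with low values between them.

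The surroundings of SPCC794.04c were different. The gene gcd1 (feature SPCC794.01c), which encodes a glucose dehydrogenase, lies 3 protein-coding genes away and stood at 4.19 on array 1 and 3.53 on array 2. That is 14.6-fold higher (3.86 ± 0.47, SD, n = 2), with a wild-type signal well above background on 1 array. Between them, SPCC794.03 stood at 0.06 ± 0.06, with no signal well above background in either strain, and wtf5 at -0.39 ± 0.46. On the other side, SPCC794.06 stood at -0.19 ± 0.19, and SPCC794.16, the nearest gene there, was not analysed here. Among 30 neighbouring features around all 9 genes, with up to 3 genes taken on each side, gcd1 was called higher and 0 were called lower by limma. At an unadjusted p under 0.05 there were 4, or 13.3% of them, against 16.2% of all features. The share called was near the 3.49% of the whole array and is no result about the neighbourhoods.

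SPBC409.08 and SPCC569.05c had smaller positive ratios on both arrays, and neither was called (limma adjusted p = 0.162 and 0.268). The 95% intervals given here are per feature and, unlike the calls, not adjusted for the number of features tested. They rest mostly on a spread shared across all features, so their width is not that of the 2 arrays of a gene alone. The spots of SPBC409.08 gave 0.86 and 1.11 on array 1 and 0.37 and 0.33 on array 2. The arrays did not overlap, and the mean was 0.67 ± 0.44 (SD, n = 2), or 1.59-fold with a 95% interval from 1.13 to 2.23. SPBC409.08 was called in 2 of 10 other settings, without background subtraction and with mean signals. Higher calls over the array were then 187 of 4801 and 190 of 4812. In SPCC569.05c, 1 spot of array 1 carried quality code 3 in the wild-type channel and was left out. The remaining spot of array 1 gave 0.63 and those of array 2 gave 0.12 and 0.58, so array 2 was spread over most of the range between 0 and the value of array 1. Its mean was 0.49 ± 0.20 (SD, n = 2), or 1.40-fold with a 95% interval from 1.03 to 1.92. On chromosome II, the nearest genes to SPBC409.08 were wis1, which encodes a MAP kinase kinase of the stress pathway, at -0.02 ± 0.26, and mis13 at -0.0025 ± 0.076. Those nearest to SPCC569.05c were SPCC569.06, at 0.27 and 0.46 on arrays 1 and 2 (mean 0.36 ± 0.13), and SPCC569.04 at 0.02 ± 0.04. None of these neighbours was called.

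SPBC530.02 lay near the control limits and differed in direction between the arrays. Its mutant signals were 640.5 and 616 on array 1 and 1458 and 615.5 on array 2, and its wild-type signals were 1812 and 1863 on array 1 and 1313.5 and 215 on array 2. The second spot of array 2 was below the limit in both strains. The spot ratios were 0.53 and 0.45 on array 1 and -0.29 and -0.14 on array 2, opposite in sign and without overlap. The mean of 0.14 ± 0.50 (SD, n = 2) had a 95% interval from -0.37 to 0.64. Without array 1 the sign of that mean turns. With median centring the gene was positive on both arrays, at a mean of 0.04, so its change of sign depended on the normalisation.

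SPBC947.06c was the only gene of the 8 that was lower in the mutant on both arrays. Its mutant signals were 514.5 and 1088 on array 1 and 1117 and 282.5 on array 2. Its wild-type signals were 4195.5 and 3632.5 on array 1 and 1127 and 762 on array 2. The wild type was well above background on both arrays and the mutant on 1. The spot ratios were -1.11 and -0.12 on array 1 and -0.51 and -1.73 on array 2, all below 0 and overlapping between the arrays. The mean was -0.87 ± 0.35 (SD, n = 2), or 1.82-fold lower, and it was not called. Its duplicate spots differed by 0.99 on array 1 and 1.23 on array 2, against medians over all features of 0.29 and 0.33, so the SD of the arrays understates its spread. Across the 8 genes, the median difference between duplicate spots was 0.25 and 0.31, close to that of all features. SPBC947.06c was called lower in 4 of 10 other settings: print-tip loess, mean signals, code 3 spots kept and dim features left out. Lower calls over the array were then 176 of 4812, 168 of 4812, 85 of 4955 and 147 of 3613. As reported they were 51 of 4812. The mean reached -1.49 with the authors' deposited values, in which 0 features were called by limma. There, a spot of SPBC947.06c on array 2 stood at -4.12, with its mutant signal below the control limit. Its neighbours frp2, at 0.37 ± 0.06 and with no signal well above background in either strain, and rrp1402 (feature SPBC947.07), at -0.23 ± 0.0041, were not called.

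**Figure D4:**
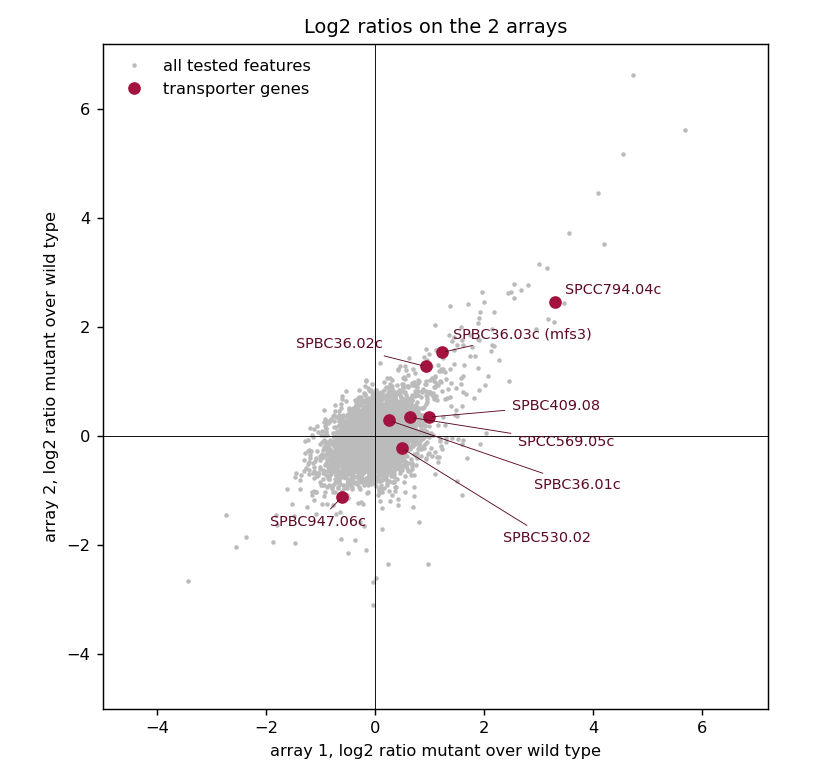
Log2 ratio of mutant over wild type on array 1 (horizontal axis) and array 2 (vertical axis) for all 4812 tested features (grey) and the 8 transporter genes (red). SPCC794.04c lies beyond the upper right of the cloud, SPBC36.02c and mfs3 at its edge, SPBC36.01c, SPCC569.05c, SPBC409.08 and SPBC530.02 within it, and SPBC947.06c at its lower left.

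From the highest to the lowest mean ratio, the order was SPCC794.04c, mfs3, SPBC36.02c, SPBC409.08, SPCC569.05c, SPBC36.01c, SPBC530.02 and SPBC947.06c. Among all tested features, mfs3 ranked 54 from the top and SPBC947.06c ranked 4748; SPCC794.04c is given no rank, since its wild-type signal was below the control limit. As a description of the spread, the array values of mfs3, from 1.22 to 1.54, overlapped those of SPBC36.02c, from 0.92 to 1.28. The latter overlapped those of SPBC409.08, from 0.35 to 0.98, and the values of SPCC569.05c, from 0.35 to 0.63, fell almost wholly within that range. Those of SPBC36.01c lay within the range of SPBC530.02, from -0.22 to 0.49. The values did not overlap between SPCC794.04c and mfs3, between SPCC569.05c and SPBC36.01c, or between SPBC530.02 and SPBC947.06c. These neighbours in the order were not tested against each other.

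The features with ratios nearest to those of SPCC794.04c, by Euclidean distance over the 2 arrays, were nrg1 (feature SPBPB2B2.01), mug114 (feature SPAC4F8.08) and isp3. Their distances were 0.18, 0.34 and 0.37 on the log2 scale. The feature of nrg1 stood at 3.47 and 2.45, that of mug114 at 3.18 and 2.15 and that of isp3 at 3.27 and 2.10 on arrays 1 and 2. In nrg1 and isp3, as in SPCC794.04c, the wild-type signal stayed below the control limit on each array, and in mug114 it passed on 1. With 2 arrays, such likeness describes only that the measured ratios were of a similar size. In nrg1, isp3 and SPCC794.04c the wild-type level has only an upper bound, so the distances between them hold for measured values alone.

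Genes of polyamine metabolism and of steps linked to it were read from a list of 14 genes, of which 11 had a value on both arrays. By limma, 0 of the 11 were called higher and 0 lower, beside 2.43% and 1.06% of all features, and 4 had an unadjusted p under 0.05, a threshold passed by 16.2% of all features. On both arrays 2 of the 11 were higher and 5 lower in the mutant, beside 30.1% and 29.6% of all features. The median of the 11 was 0.03, with array medians of -0.01 and -0.19, beside 0.01 for all features. The gene spe1, which encodes ornithine decarboxylase, the enzyme that forms putrescine, stood at 0.05 ± 0.12 (SD, n = 2, limma adjusted p = 0.941). The S-adenosylmethionine decarboxylase gene spe2 stood at 0.44 ± 0.09 (limma adjusted p = 0.319). The spermidine synthase gene srm1 (feature SPBC12C2.07c) stood at -0.59 and -0.90, a mean of -0.75 ± 0.22 (limma adjusted p = 0.0849), with the mutant signal well above background on 1 array. The arginase gene aru1 stood at -0.68 ± 0.24 (limma adjusted p = 0.121), and the copper amine oxidase gene cao1 at 0.62 ± 0.43 (limma adjusted p = 0.193). The gene mta1 (feature SPAC16C9.02c), listed for the recovery of methylthioadenosine, a by-product of polyamine synthesis, stood at -0.52 ± 0.36 (limma adjusted p = 0.265). The feature named car1 stood at 0.12 ± 0.32. That name is the symbol of an arginase gene and an older name of the transporter gene bsu1, so which gene the feature reads is not settled. The remaining listed genes with a value were car2 at 0.03 ± 0.31, cao2 at 0.17 ± 0.31, SPBC1271.04c at -0.34 ± 0.13 and tif51 at -0.37 ± 0.51. Signal was saturated in car2 and tif51. The genes spa1, fms1 and sam1 were not analysed here.

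Of other major facilitator genes, a list of 5 was measured: fnx1, fnx2, mfs1, mfs2 and caf5. The list was drawn up by gene symbol alone. It does not cover the superfamily on the array, so its counts say nothing about members of the superfamily that were not listed. By limma, 0 of the 5 were called in either direction, beside 3.49% of all features, and 2 had an unadjusted p under 0.05, beside 16.2%. With 5 genes, a count of 0 is near the share of the whole array. Their median of 0.25 was the value of mfs2 (feature SPAC11D3.05), in which the mutant was well above background on 1 array and the wild type on 0. The gene fnx2 (feature SPBC3E7.06c), which encodes a vacuolar amino acid transporter, gave 1.51 on array 1 and -0.05 on array 2. Its mean of 0.73 ± 1.11 thus rests on array 1, and each strain was well above background on 1 array only. The gene mfs1 (feature SPAC9E9.16) stood at 0.27 and 0.80 (mean 0.54 ± 0.37), and caf5 (feature SPBC609.04), named for caffeine resistance, at 0.15 and 0.01. In caf5 the mutant was well above background on 1 array. Whether the 8 transporter genes differ from these 5 was not tested.

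**Figure D5:**
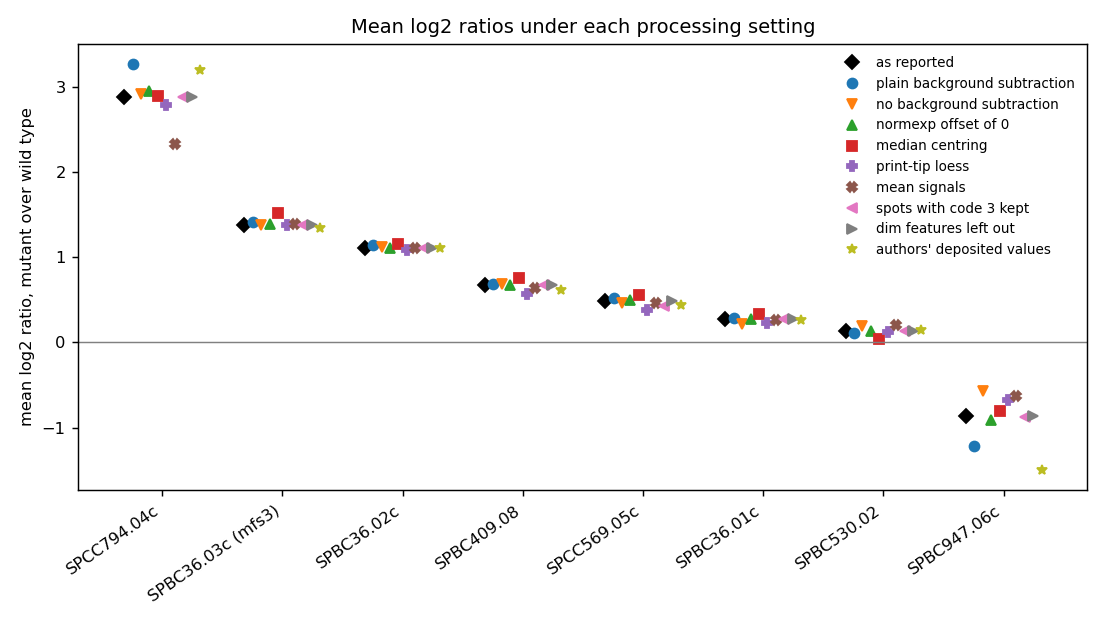
Mean log2 ratio of mutant over wild type (vertical axis) of the 8 transporter genes under the reported processing (black diamonds) and 9 other settings (coloured symbols). The order of the genes by mean is the same in each of these settings; SPCC794.04c ranges from 2.33 to 3.26 and SPBC947.06c from -1.49 to -0.57.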

How the data were processed

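The scanner tables hold spot intensities on a linear scale and a quality code of 0, 2 or 3 for each channel, per the file headers; the meaning of the codes, the image software and the genome build are stated in neither headers nor labels. The authors also deposited log10 ratios, Lowess-normalised per the series design text; set against the normalised scanner ratios they correlated at 0.963 over 9062 spots of array 1 and 0.886 over 9193 of array 2, with medians of -0.01 and 0.02, so log base and numerator were read from the values.

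Of 11520 spots, 1550 control or unnamed ones were left out. Median intensities were background-corrected by normexp (offset 50) and loess-normalised in limma 3.58.1 (R 4.3.3), with weight 0 for control and code 3 spots. Code 3 spots were then dropped and spots averaged per feature. Mean log2 ratios of 4812 features (143 lacked a value) were fitted with lmFit and eBayes and adjusted by Benjamini-Hochberg at 0.05, with 1 residual degree of freedom per feature and a prior of 9.21. Normalised ratios of the arrays correlated at 0.55 over features; before normalisation the first-over-second ratios of spots correlated at -0.24. A feature was well above background where its mean signal minus background exceeded the 95th percentile of 96 bacterial control spots (aceF, kdtA). The number of arrays limits precision, and the arrays' spread may be partly technical.

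Feature names matched the ASM294v3 gene table (names and order only) by systematic name (3467), symbol (944) or synonym (379); 165 did not match. All members were named, then listed genes that were called, spe1, spe2 and spermidine synthase, the nearest or called neighbours and the 3 features nearest in pattern; further listed genes were named after their values were seen. Members and lists were chosen with earlier results of these data known. Spermidine synthase was listed as spe3 and found as srm1; odc1, whose symbol belongs to another gene there, was dropped after the values were known. Product texts for the list of other major facilitator genes were not used here.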

Additional observations from a re-analysis of the deposited data

How the results depend on the processing

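All 8 transporter genes kept the sign of their mean in the 10 other settings. Their number of calls was 3 of 8 as reported. It was 1 with plain background subtraction, 1 with median centring, 5 with mean signals and 0 with the authors' deposited values. Calls over the array, 168 of 4812 as reported, were then 60 of 4795, 38 of 4812, 358 of 4812 and 0 of 4789. Those over the array were 341 of 4801 without background subtraction, 377 of 4812 with print-tip loess (201 higher, 176 lower) and 309 of 3613 with dim features left out. The authors' values are rounded, and 72 of 4789 features were equal on both arrays to within 1e-08; with a robust prior, chosen after seeing the data, 68 features and 1 transporter gene, SPCC794.04c, were called. Of polyamine metabolism genes, 0 of 11 as reported, 1 of 11 was called without background subtraction and 1 of 11 with print-tip loess. With mean signals 3 of 11 were called, and with dim features left out 2 of 10. Of the 5 other major facilitator genes listed, 1 (fnx2) was called with print-tip loess. Neighbours called, 1 of 30 as reported, were 2 of 30 without background subtraction, 2 of 23 with dim features left out and 0 of 30 with the authors' values. The cause was not tested. As reported, SPBC530.02 ranged from -0.22 to 0.49 when each array in turn was left out, and without array 1 its sign turned. With median centring it was positive on both arrays. The strains were paired on each array, and the fit used the ratios within arrays, so that pairing was kept. Dim signal limits SPCC794.04c in the wild type and SPBC530.02 and SPBC947.06c in the mutant.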

Other observations

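A feature named SPCC794.05c, which matched no gene in the gene table and was chosen after its values were seen, stood at 0.18 on array 1 and 0.23 on array 2, with each strain well above background on 1 array.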
